A study of Mus musculus with 8 samples.

Results

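Histamine reaches the hippocampus through axons from a small group of hypothalamic neurons and acts there through G protein-coupled receptors. The members described here are the receptor genes Hrh1, Hrh2 and Hrh3 together with Hnmt, which encodes histamine N-methyltransferase, the enzyme that inactivates histamine in brain tissue. The H1 receptor couples to Gq and phospholipase C, the H2 receptor to Gs and adenylyl cyclase, and the H3 receptor to Gi/o. The H3 receptor sits on histaminergic axons, where it restrains histamine release, and also on neurons that use other transmitters. These 4 genes were picked by name from the 40659 genes of the count table, at a time when their differences between the groups were already known. All differences of these 4 genes between the groups are therefore given as a description, and no test is read from them.

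PolyA-RNA sequencing covered the whole hippocampus of 8 male C57BL/6JRj mice, wild type in both groups. At 7 to 8 weeks of age, 4 mice received the rAAV hpCTL with a control hairpin and 4 the rAAV hp708 with a miR-708-5p hairpin, both into dorsal and ventral hippocampus. The study's methods place tissue collection 4 weeks later, and the sample labels give an age of 12 to 13 weeks, which is later than the sum of these times by 1 week. The hairpin is driven by the human synapsin promoter, so it is made in neurons, whereas the RNA came from all cells of the tissue, and fewer cells of a type and less RNA per cell cannot be told apart. Total counts ranged from 22606824 to 28462428 per mouse. Mir708 had 0 counts in all 8 libraries, so the overexpression itself is not visible in libraries made from polyA RNA.

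Animal 1602 carries conflicting labels, since it is hp708 replicate 1 in the sequencing labels and hpCTL in the source data of a qPCR panel. It was kept in hp708, and the members are given with and without it. The libraries also differed in the tissue they held. The summed level of 5 choroid plexus markers ran from 51.4 to 4372 CPM (counts scaled to library size by TMM, edgeR's trimmed mean method), with high and low libraries in both groups. The 5 pan-neuronal markers stayed between 4768 and 5587 CPM.

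The microRNA is shown because its seed defines the sites that can be searched in the members. In the mature sequence from RefSeq, the capitals mark the seed, bases 2 to 8.
mmu-miR-708-5p: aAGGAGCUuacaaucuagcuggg

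Seed matches were searched in the annotated 3'UTRs of the members on GRCm39, on the transcribed strand only. An 8mer or a 7mer-m8 holds AGCTCCT, the 8mer with a following A, a 7mer-A1 holds GCTCCTA, and a 6mer holds GCTCCT alone. Only Hrh3 carried sites of 7 or more bases among these 4 genes. Its reference 3'UTR of 1040 bases holds 1 8mer and 1 7mer-m8, and both lie in all 4 protein-coding Hrh3 transcripts that extend past their stop codon. The 23-base windows opposite the microRNA start 470 bases after the stop codon for the 8mer and 332 bases after it for the 7mer-m8. They span chr2:179741797-179741819 and chr2:179741935-179741957 on the minus strand and are printed 5′ to 3′, with the seed match in capitals.
Hrh3 8mer: ttaatcccggagcccAGCTCCTA
Hrh3 7mer-m8: ttggtgtgtgctcccAGCTCCTg

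Counting the seed match itself, 10 of the 23 positions could form Watson-Crick pairs with the microRNA in the 8mer window and 9 in the 7mer-m8 window. A further pair of 7mer-m8 matches, at chr2:179742346-179742368 and chr2:179742695-179742717, lies upstream of the reference stop codon and falls in the 3'UTR of 3 alternative Hrh3 transcripts. Hrh2 had a 6mer in its reference 3'UTR of 1092 bases and another in a longer alternative 3'UTR. None of the site types was found for Hrh1, whose 3'UTR has 2074 bases, or for Hnmt, whose reference 3'UTR has 937 bases. Of the 14702 tested genes with a reference 3'UTR, 21.3% held an 8mer, 7mer-m8 or 7mer-A1, and 4.88% held more than 1. Among the 875 genes whose 3'UTR was within 10% of the length of that of Hrh3 these shares were 14.3% and 1.6%. A match describes these letters only and does not show that the microRNA binds there.

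Levels were compared between genes per kilobase of exon (RPKM, from the TMM-scaled counts). Hrh3 was the most abundant receptor transcript, with 15.6 ± 3.38 RPKM over all mice (SD, n = 8), a level above that of 85.3% of the 17162 tested genes of known length. Hnmt followed with 7.34 ± 0.840 RPKM, above 69.8% of them. Hrh2 had 1.44 ± 0.209 RPKM and Hrh1 0.955 ± 0.274 RPKM (SD, n = 8 each), above 30.9% and 24.2% of the genes.

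The order of the 4 levels was therefore Hrh3, Hnmt, Hrh2 and Hrh1. The ranges over the 8 mice of Hrh3 (9.40 to 18.8 RPKM) and Hnmt (6.06 to 8.58) did not overlap, nor did those of Hnmt and Hrh2 (1.18 to 1.82). Hrh2 and Hrh1 (0.518 to 1.26) overlapped in range, although Hrh2 was the higher of the pair within each mouse, by 1.11 to 2.55 times. Of the summed RPKM of these 3 receptors, Hrh3 made up 81.0% to 88.1% in every library, with a mean of 87.0 ± 1.13% in hpCTL and 85.8 ± 3.18% in hp708 (SD, n = 4 each). The fourth receptor gene, Hrh4, had 0 counts in all 8 libraries, and 3 counts, the floor used here, is the limit that such a value allows per library.

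**Figure D1:**
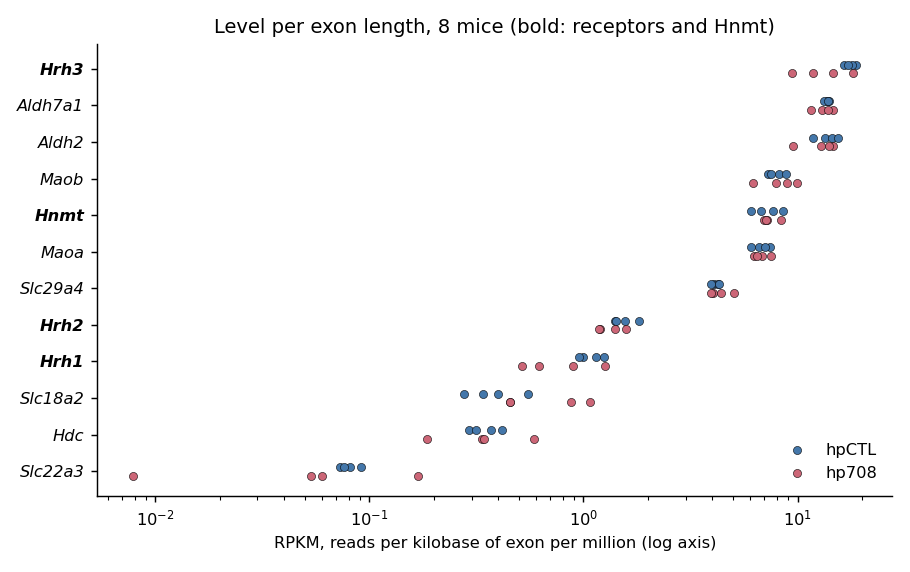
Level per exon length (RPKM, log axis) of the 4 members, in bold, and of the tested genes for histamine synthesis, uptake and other breakdown, with 1 point per mouse, blue for hpCTL and red for hp708. Hrh3 lies at the top with a mean of 15.6 RPKM, while Hrh2 and Hrh1 lie at 1.44 and 0.955 RPKM.

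Hrh3 (ENSMUSG00000039059) lies on the minus strand of chromosome 2 of GRCm39 from 179741249 to 179746292. In hpCTL mice it had 70.6, 67.6, 61.9 and 64.9 CPM in replicates 1 to 4, a narrow range with a mean of 66.2 ± 3.70 CPM (SD, n = 4). In hp708 mice it had 68.1 CPM in replicate 1 and 44.5, 54.7 and 35.3 CPM in replicates 2, 3 and 4, with a mean of 50.7 ± 14.1 CPM (SD, n = 4). Hence 3 of the 4 hp708 mice were below all hpCTL mice, and the remaining one, animal 1602, was inside the hpCTL range, so that the groups overlapped. The highest hp708 value was 1.93 times the lowest, against 1.14 times in hpCTL.

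The fit of edgeR's quasi-likelihood model with 3 surrogate variables, which absorb unknown variation between libraries, gave a log2 fold change of -0.29 for Hrh3 (standard error, SE, of 0.10). Without surrogate variables it was -0.39 (SE 0.17). Leaving out hp708 replicate 1 lowered the hp708 mean to 44.8 ± 9.71 CPM (SD, n = 3) and the log2 fold change to -0.64 (SE 0.08). With animal 1602 counted as hpCTL the hpCTL mean became 66.6 ± 3.32 CPM (SD, n = 5) and the log2 fold change -0.55 (SE 0.09). Leaving out hp708 replicate 4, the lowest library, moved the log2 fold change the other way, to -0.15. The direction was thus the same in each of these fits, while its size depended on which hp708 mouse was left out.

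Hrh1 (ENSMUSG00000053004) lies on the plus strand of chromosome 6 from 114374478 to 114460261. It is a low gene here, with 69 to 202 counts per library. In hpCTL it had 6.60, 7.26, 5.78 and 5.52 CPM (mean 6.29 ± 0.793, SD, n = 4). In hp708 it had 7.32 CPM in replicate 1 and 3.00, 5.20 and 3.59 CPM in replicates 2, 3 and 4 (mean 4.78 ± 1.93, SD, n = 4). The pattern resembled that of Hrh3, with hp708 replicates 2, 3 and 4 below all hpCTL mice, except that replicate 1 was above all of them. The log2 fold change was -0.27 (SE 0.16), and -0.80 (SE 0.15) without hp708 replicate 1. It moved the other way, to -0.15, without hpCTL replicate 2 (SE 0.16) or hp708 replicate 4 (SE 0.19), and was -0.46 without hpCTL replicate 4. Without hp708 replicate 1 the hp708 mean was 3.93 ± 1.14 CPM (SD, n = 3).

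Over the 8 libraries log2 CPM of Hrh1 and Hrh3 gave a Pearson r of 0.89, given as a description with no test, since the points share their libraries and groups. The other pairs of members lay between -0.09 and 0.28. Between Hrh3 and Hrh1 the ratio per exon length stayed between 14.4 and 22.9 in all mice. Between Hrh3 and Hrh2, in contrast, it ran from 5.93 to 13.5.

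Hrh2 (ENSMUSG00000034987), on the plus strand of chromosome 13 from 54345993 to 54390199, had 8.71, 8.83, 11.3 and 9.69 CPM in hpCTL (mean 9.64 ± 1.20, SD, n = 4). In hp708 it had 8.77, 7.43, 7.37 and 9.87 CPM (mean 8.36 ± 1.20, SD, n = 4). Only replicates 2 and 3 of hp708 were below all hpCTL mice, and replicate 4, the lowest library for Hrh3, had the second highest Hrh2 value of all 8. The means differed by about as much as 1 SD within a group. The log2 fold change was -0.23 (SE 0.14). It was -0.11 without hp708 replicate 2, -0.09 without hp708 replicate 3, -0.15 without hpCTL replicate 1 and -0.14 without hpCTL replicate 3. The hp708 mean was 8.23 ± 1.43 CPM (SD, n = 3) when animal 1602 was left out.

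Hnmt (ENSMUSG00000026986), on the minus strand of chromosome 2 from 23892668 to 23939872, had 21.7, 15.3, 17.1 and 19.3 CPM in hpCTL (mean 18.4 ± 2.75, SD, n = 4). In hp708 it had 21.3, 17.6, 18.2 and 17.9 CPM (mean 18.8 ± 1.70, SD, n = 4). All hp708 values lay inside the hpCTL range. The log2 fold change was 0.11 (SE 0.10), and 0.03 (SE 0.12) without surrogate variables. With 3 surrogate variables and 1 library left out it ran from 0.02 (without hpCTL replicate 2) to 0.20 (without hpCTL replicate 1). Leaving out animal 1602 gave an hp708 mean of 17.9 ± 0.318 CPM (SD, n = 3).

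**Figure D2:**
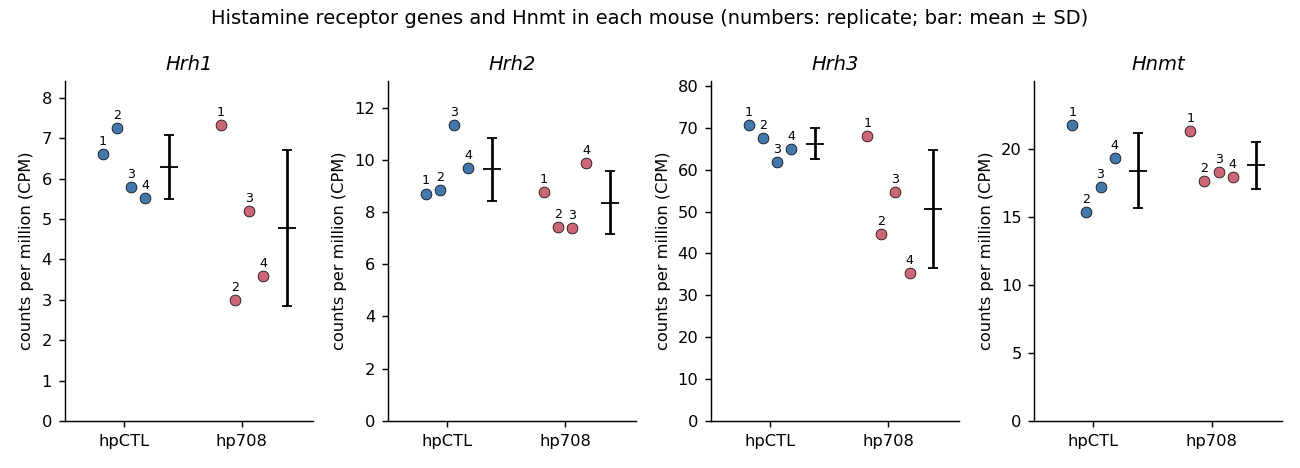
CPM of Hrh1, Hrh2, Hrh3 and Hnmt in each mouse, in separate panels with axes from 0. Points are mice numbered by replicate, and the bars give mean ± SD (n = 4 per group). In Hrh1 and Hrh3 the hp708 replicates 2, 3 and 4 lie below the hpCTL points and replicate 1 does not, while the Hnmt points of hp708 lie within those of hpCTL.

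The quasi-likelihood test of edgeR called 0 of the 4 members at an FDR (the p-value adjusted by Benjamini and Hochberg) under 0.05, beside 0.0058% of the 17252 tested genes, and DESeq2 likewise called 0. At an unadjusted p-value below 0.05 it counted 1 member, Hrh3, beside 7.7% of all genes. The groups overlapped for all 4 members and were apart for 1.51% of all tested genes. At least 3 of 4 hp708 libraries were below all hpCTL libraries for 2 members, Hrh1 and Hrh3, and for 6.86% of all tested genes. Without hp708 replicate 1, 1 member passed the FDR of 0.05, again Hrh3, beside 0.321% of the genes tested in that fit. The same omission without surrogate variables called 0 members, with an FDR of 0.998 for Hrh3, and 0 of all genes. The remaining 3 hp708 mice were then below all hpCTL mice for 2 members, Hrh1 and Hrh3, beside 3.12% of all genes, with 4.92% of genes apart in either direction. Since the members were chosen with this contrast known, nothing is read from these counts.

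Summed markers of subiculum and cortical layers, tissue next to the hippocampus, were lower in hp708 replicates 2, 3 and 4 than in replicate 1. Hrh3 and Hrh1 were lower in the same mice. The summed level of 5 subiculum markers was 101.6 to 165.5 CPM in hpCTL, 145.1 CPM in hp708 replicate 1 and 91.4 to 103.5 CPM in the other hp708 mice, with none of the markers at 0. Within hpCTL the subiculum sum did not follow Hrh3. It was 101.6, 135.7, 145.3 and 165.5 CPM in replicates 1 to 4, and replicate 1, the lowest, had the highest Hrh3 level. The sums of hp708 replicates 3 and 4, 103.5 and 102.5 CPM, were not below that of hpCTL replicate 1. For 5 markers of cortical layers the sum was 79.1 to 103.9 CPM in hpCTL and 100.9 CPM in hp708 replicate 1. In the other hp708 mice it was 60.9 to 67.8 CPM, again with none at 0. Most of the subiculum sum was Fn1, at 67.4, 75.8 and 90.5 CPM in hp708 replicates 2, 3 and 4, inside its hpCTL range of 66.4 to 125 CPM. Cux2 of the cortical list was also inside its hpCTL range in these mice. Nts, Cntn6, Cplx3, Nxph4 and Fezf2 were below all hpCTL mice in all 3, and Slc17a6, Gpr101 and Rorb only in some of them. All 5 genes of each list had a fitted log2 fold change below 0, as had 53.2% of all tested genes. This was not particular to these lists, since all 6 thalamus and habenula markers and all 6 microglia markers also had a value below 0, although their sums did not follow the same libraries. Microglia markers summed to 628.1 to 841.1 CPM in hpCTL and 522.8 to 871.1 CPM in hp708, with the lowest value in replicate 1. Thalamus and habenula markers summed to 51.6 to 64.5 CPM in hpCTL and 44.8 to 92.8 CPM in hp708, again with the lowest value in replicate 1. Markers of dentate granule cells and of CA2 were higher in hp708 replicates 2, 3 and 4 than in replicate 1, but did not set all 3 apart from the hpCTL mice. The dentate sum was 206.9 to 281.9 CPM in hpCTL, 212.4 CPM in hp708 replicate 1 and 267.2, 369.7 and 325 CPM in replicates 2, 3 and 4. The CA2 sum was 122.1 to 185.2 CPM in hpCTL, 135.9 CPM in hp708 replicate 1 and 172.9, 165.8 and 192.7 CPM in replicates 2, 3 and 4. The part of these cells in the values of Hrh3 and Hrh1 was not tested.

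The CA1, striatal, choroid plexus and endothelial sums did not set hp708 replicates 2, 3 and 4 apart from the other mice. The CA1 pyramidal neuron markers summed to 604.3 to 726.8 CPM in hpCTL and 615 to 674.3 CPM in hp708. Striatal markers, of a region rich in H3 receptor, summed to 22.6 to 29.0 CPM in hpCTL and 22.5 to 28.5 CPM in hp708. Choroid plexus markers were at 4372 CPM in hp708 replicate 2 and at 170.6 CPM in replicate 4, both of which had low Hrh3. Astrocyte markers summed to 3714 to 4269 CPM in hpCTL and 4109 to 4979 CPM in hp708. The ranges of the groups overlapped for every marker list. Endothelial markers, of interest because H1 receptors and Hnmt are also found in vessels, summed to 202 to 245.8 CPM in hpCTL and 212.5 to 226.7 CPM in hp708.

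**Figure D3:**
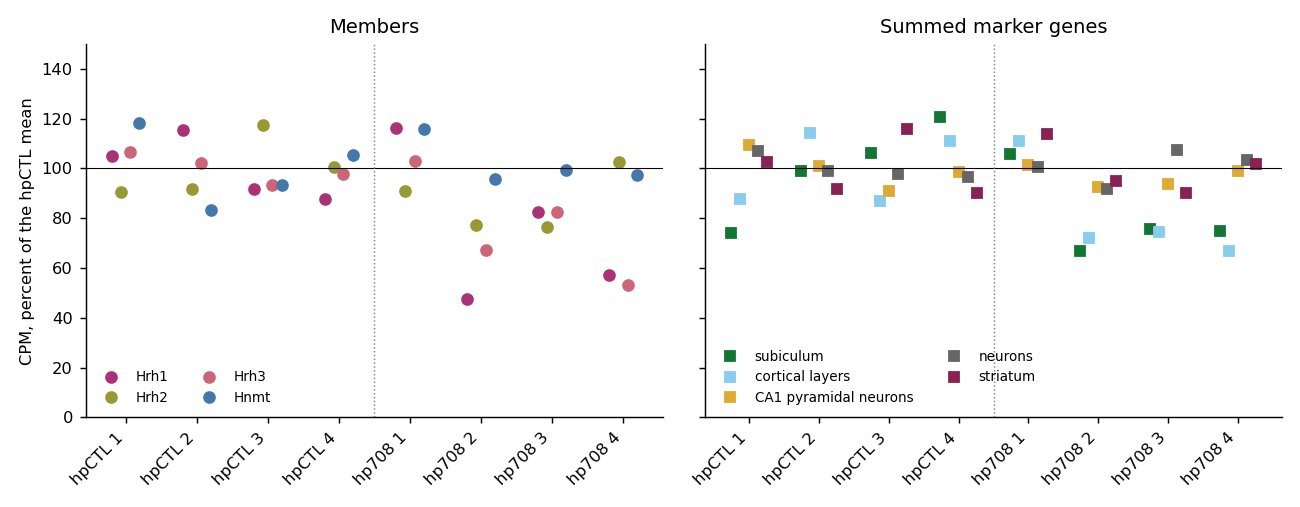
CPM of the members (left) and summed CPM of marker lists (right) in each mouse as a percent of the hpCTL mean, with the hpCTL mice to the left of the dotted line. Hrh1 and Hrh3 are low together in hp708 replicates 2, 3 and 4, with Hrh3 at 53.3% of the hpCTL mean in replicate 4. The subiculum and cortical layer sums are low in the same mice, and the subiculum sum is low in hpCTL replicate 1 too, at 74.1%.

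Antisense genes in the annotation overlap exons of Hrh3, Hrh2 and Hrh1. Gm17180 covers 11.6% of the exon bases of Hrh3 and was itself counted at 2 reads or fewer per library. Gm16578 covers 16.8% of those of Hrh2 and had 0 counts in all 8 libraries. Gm38875, over 3.47% of those of Hrh1, is not among the counted genes. Whether the counting used strand is not given in the sources used here, so reads from a gene and its antisense partner cannot be told apart.

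Of the genes that make, move or otherwise break down histamine, all 13 listed were in the table and 8 were tested. Hdc, the enzyme that makes histamine from histidine, had 30 to 93 counts per library. This came to 2.00 to 2.85 CPM in hpCTL and 1.28 to 4.04 CPM in hp708, with a log2 fold change of -0.18 (FDR 0.863, SE 0.18). The sign turned without surrogate variables, to 0.06 (SE 0.31), and the mean was 2.39 CPM in hpCTL and 2.50 CPM in hp708. Mast cells also make histamine, and 6 mast cell markers summed to at most 0.609 CPM in any library.

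Maoa and Maob, the monoamine oxidases that act after Hnmt, had 26.3 to 32.7 CPM and 22.3 to 35.5 CPM over all mice. Their log2 fold changes were 0.05 (SE 0.07, FDR 0.911) and 0.06 (SE 0.09, FDR 0.918). Slc29a4, a low-affinity monoamine transporter, had 38.2 to 48.9 CPM (FDR 0.930, log2 fold change 0.04, SE 0.07). Aldh2 and Aldh7a1, aldehyde dehydrogenases, had log2 fold changes of -0.07 and -0.01. The groups overlapped for each of these 5 genes.

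The vesicular monoamine transporter Slc18a2 was the only gene of this list with an unadjusted p-value below 0.05. It had 3.07, 2.23, 1.89 and 1.54 CPM in hpCTL and 2.54, 5.96, 2.51 and 4.87 CPM in hp708. Only hp708 replicates 2 and 4 exceeded the highest hpCTL mouse. The log2 fold change was 0.67 (SE 0.22), with an FDR of 0.561 that ran from 0.225 to 1 over 13 alternatives. For Slc18a2 the fit gave 1.21 (FDR 0.14) without hp708 replicate 1. Transcripts of Slc22a3, an organic cation transporter, were at 1 to 21 counts. Those of Aoc1, the diamine oxidase of peripheral tissues, and of Hal, which directs histidine away from histamine, were at 6 counts or fewer and below the filter, as was Slc22a2 with 1 to 13 counts.

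Downstream of the receptors, none of the genes passed an FDR of 0.05 either. Over all 51 tested genes of the pathway lists other than the members, 0 passed, beside 0.0058% of all genes, and 9 (17.6%) had an unadjusted p-value below 0.05, beside 7.7%. With DESeq2 and 3 surrogate variables 1 of them, Kcnj6, passed, and so it did with edgeR's likelihood ratio test, where 96 and 127 of all tested genes passed. Their median log2 fold change was 0.01, against -0.01 over all 17252 tested genes, with 30 above and 21 at or below 0. Of the 9 genes, 6 had a value above 0 and 3 below, beside 2.82% and 4.87% of all genes. These lists were written with earlier results of these data known.

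In the Gq and phospholipase C arm, which H1 receptors use, 3 of 12 genes had an unadjusted p-value below 0.05. Gnaq, the Gq alpha subunit itself, had 212.1 to 245.1 CPM in hpCTL and 219 to 288.4 CPM in hp708 (FDR 0.641, log2 fold change 0.12, SE 0.05). Prkca, a protein kinase C, had 280.6 to 305 CPM in hpCTL and 293.9 to 425.7 CPM in hp708 (FDR 0.594, log2 fold change 0.19, SE 0.07, and 0.30 with an FDR of 0.128 without hp708 replicate 1). Plcb2, a phospholipase C of low level here, had 6.57 to 12.0 CPM in hpCTL and 5.71 to 11.2 CPM in hp708. Its log2 fold change of -0.46 (FDR 0.529) shrank to -0.15 without hp708 replicate 1. Over the 13 alternatives Plcb2 ran from -0.46 to -0.02, and with 1 library left out from -0.65 (without hp708 replicate 4) to -0.07 (without hp708 replicate 3 and without surrogate variables). Without hpCTL replicate 3 the values of Gnaq and Prkca were 0.07 and 0.10.

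In the Gs and adenylyl cyclase arm, which H2 receptors use, 2 of 12 genes had such a p-value, and they pointed in opposite directions. Adcy9 had 38.6 to 77.7 CPM in hpCTL and 51.3 to 103.1 CPM in hp708 (FDR 0.386, log2 fold change 0.28, SE 0.07). With 1 library left out and no surrogate variables its log2 fold change reached 0.16 (without hpCTL replicate 1) and 0.48 (without hp708 replicate 2). Adcy8, a calcium-stimulated cyclase, had 16.7, 18.6, 20.1 and 19.8 CPM in hpCTL and 18.2, 16.7, 12.7 and 13.8 CPM in hp708 (FDR 0.560, log2 fold change -0.31, SE 0.10). Gnas, which encodes Gs alpha, had a log2 fold change of 0.00.

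In the Gi/o arm, which H3 receptors use, 3 of 13 genes had such a p-value. Kcnj9 and Kcnj6 encode subunits of the inwardly rectifying potassium channels that Gi/o-coupled receptors open. Kcnj9 had 100.5, 105.9, 100.8 and 100.1 CPM in hpCTL and 111.4, 66.3, 87.0 and 71.8 CPM in hp708, so that its hp708 replicates 2, 3 and 4 lay below all hpCTL mice and replicate 1 above them. Its log2 fold change was -0.19, with an SE of 0.07 and an FDR of 0.576, and -0.50 (FDR 0.0276) without hp708 replicate 1. The same omission without surrogate variables left 0 of the pathway genes other than the members at an FDR below 0.05. Without hp708 replicate 4 the log2 fold change of Kcnj9 was -0.12.

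Kcnj6 went the other way. It had 15.9, 29.0, 33.6 and 27.6 CPM in hpCTL and 31.2, 23.5, 40.8 and 51.8 CPM in hp708, with a log2 fold change of 0.38 (FDR 0.294, SE 0.06). The groups overlapped, and the FDR ran from 0.00561 to 1 over 13 alternatives. With 1 library left out, with or without surrogate variables, the log2 fold change of Kcnj6 ran from 0.22 (without hp708 replicate 4) to 0.64 (without hp708 replicate 2 and without surrogate variables). Cacna1a, a calcium channel of presynaptic terminals, had a log2 fold change of 0.14 (FDR 0.594, SE 0.05), which ran from 0.07 (without hp708 replicate 4) to 0.25 (without hp708 replicate 2 and without surrogate variables). The Gi/o alpha subunit genes Gnai1, Gnai2, Gnai3, Gnao1 and Gnaz, and all 6 genes for receptor kinases and arrestins, had unadjusted p-values above 0.05.

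**Figure D4:**
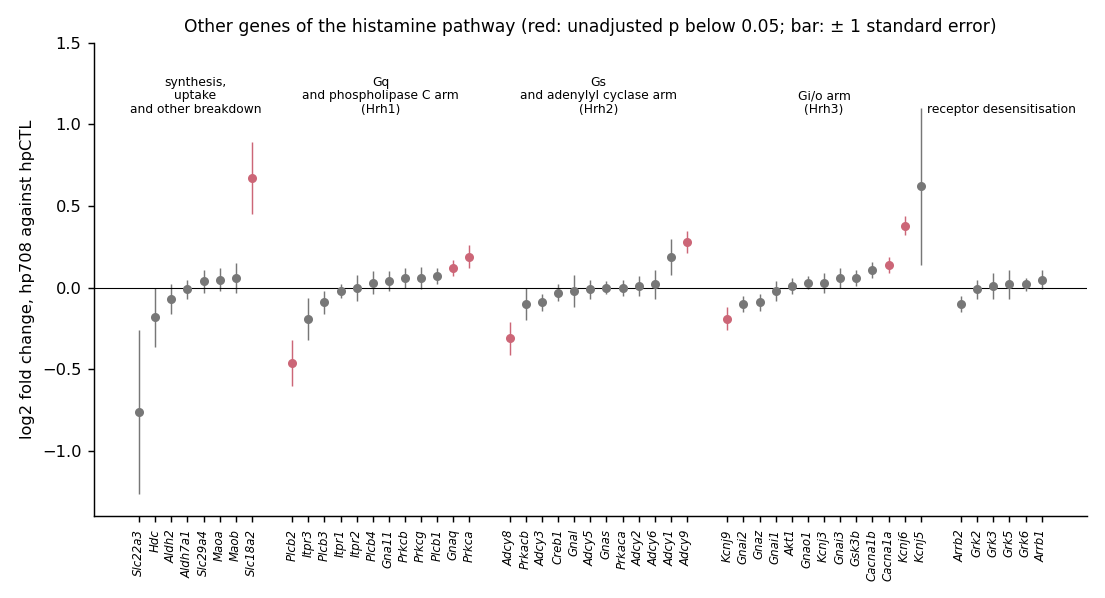
Fitted log2 fold change of the 51 tested pathway genes other than the members, hp708 against hpCTL, with 3 surrogate variables and bars of ± 1 SE. Red points mark the 9 genes with an unadjusted p-value below 0.05, of which none passed an FDR of 0.05, and they lie on both sides of 0.

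The genes whose pattern over the 8 libraries was most like that of a member were taken as the 5 with the highest Pearson correlation of log2 CPM, out of 12506 genes with a mean of at least 5 CPM. All points share the 2 groups and the depth of the libraries, and with 8 points and so many candidates high values are found for any gene, so the correlations are descriptions. For Hrh3 the 5 genes were Cd200, Sncb, Elavl4, Resp18 and Tmem132a, with r between 0.974 and 0.981. Resp18 had a range of 16.5 to 44.8 CPM over the mice.

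For Hrh1 the most alike gene was Kcnj9 (r 0.978), the channel subunit of the Gi/o list, followed by Slc13a5, Chst8, D630023F18Rik and Shfl with r of 0.966 or more. For Hnmt the second in the order was Maoa (r 0.947), after Tmem248 (r 0.948) and ahead of Rxylt1, Polr3e and Gatb. For Hrh2 they were Capn2, Sidt2, Lcmt2, Gm20537 and Incenp, with r between 0.916 and 0.948. None of the 20 genes was shared between members.

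**Figure D5:**
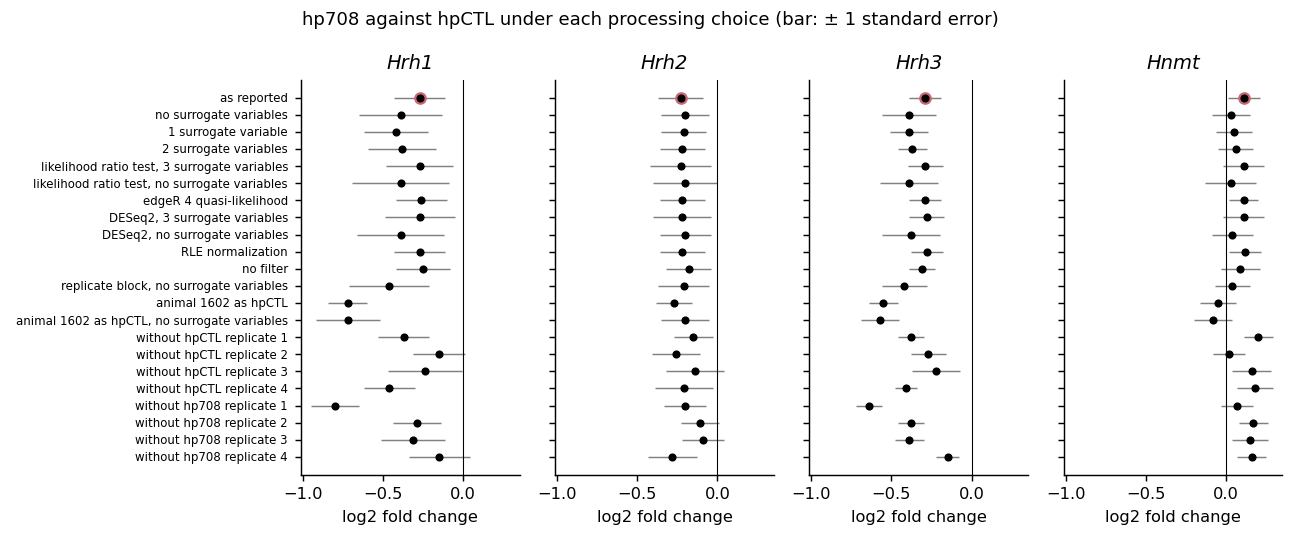
Log2 fold change of each member, hp708 against hpCTL, as reported (red) and under each alternative fit or with 1 library left out, with bars of ± 1 SE. Hrh1, Hrh2 and Hrh3 stay below 0 in all fits shown, Hnmt lies near 0 on both sides, and the lowest values of Hrh1 and Hrh3, -0.80 and -0.64, are those without hp708 replicate 1.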

How the data were processed

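The authors prepared TruSeq mRNA libraries from whole hippocampus, mapped the reads to GRCm39 with STAR 2.7.8a and GENCODE M26, and counted them per gene with featureCounts 1.6.4. The deposited table holds these raw counts without normalization, with 1 column per animal, and all 8 columns were matched to a sample by animal number. Of the 40659 identifiers, 39641 were named from GENCODE M39, a later release on the same build, which also gave exon lengths and 3'UTRs.

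From the counts, genes were kept by filterByExpr (17252) and fitted with edgeR 4.0.16 in R 4.3.3, with TMM scaling and the older form of its quasi-likelihood test. The model held 3 surrogate variables that svaseq of sva 3.50.0 estimated, and p-values were adjusted after Benjamini and Hochberg. The quasi-likelihood model is the one a figure legend of the study names, and its methods name a likelihood ratio test, which was run as an alternative, as was DESeq2 1.42.0. Log2 CPM used a prior count of 2. The standard error is the log2 fold change divided by the square root of the test statistic. Each pair of libraries was compared over the genes that reached 20 counts, and the chi-square per degree of freedom was 10 or more in each pair, so no library was a copy of another. The functions were tested on simulated counts. The precision of each value is limited by the 4 mice per group and, for genes of low count, by counting error.

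The members and gene lists were chosen with earlier results of these data known. The genes named are the members, the histamine pathway lists and the 5 genes most alike each member. Cell type marker lists were summed as CPM and given as ranges. The values of 1 listed gene are not reported here.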

Additional observations from a re-analysis of the deposited data

Results flagged for a closer look

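In 2 of the 42 groups of 4 mice looked at, over the genes named for the members and their pathway, the highest or lowest mouse stood apart from the other 3 by more than Dixon's 95% critical value. Chance flags about 1 in 20 groups, which is 2.10 of 42. Gnaq, the Gq alpha subunit, had 212.1 CPM in hpCTL replicate 1 against 240.0 to 245.1 CPM in the other hpCTL mice. Kcnj9, a subunit of the channels that Gi/o-coupled receptors open, had 105.9 CPM in hpCTL replicate 2 against 100.1 to 100.8 CPM in the other hpCTL mice. None of the 4 members was among the 2.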

How the results depend on the processing

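Hrh1, Hrh2 and Hrh3 kept a negative log2 fold change in all 13 alternative fits and in every fit with 1 library left out. Over the left-out libraries Hrh1 ran from -0.80 (without hp708 replicate 1) to -0.15 (from -0.67 to -0.23 without surrogate variables), Hrh2 from -0.28 to -0.09 (-0.29 to -0.12) and Hrh3 from -0.64 (without hp708 replicate 1) to -0.15 (-0.56 to -0.25). With animal 1602 as hpCTL, Hrh1 was at -0.72 with and without surrogate variables, and Hrh3 at -0.55 with them and -0.57 without. Hnmt ran from 0.02 to 0.20 over left-out libraries (-0.05 to 0.12 without surrogate variables) and was at -0.08 without surrogate variables when animal 1602 was counted as hpCTL. Members at an FDR below 0.05 numbered 0 in all 13 alternatives, and 0 to 1 over left-out libraries (0 without surrogate variables).

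Genes at an FDR below 0.05 numbered 1, against 0 with 0, 1 or 2 surrogate variables, 127 by the likelihood ratio test (2 without surrogate variables), 3 by the edgeR 4 quasi-likelihood test, 96 by DESeq2 (2 without surrogate variables), 12 without the filter, and 29 with animal 1602 as hpCTL (0 without surrogate variables). Over left-out libraries they numbered 0 to 56, and 0 without surrogate variables. An unadjusted p-value under 0.05 was found for 1328 genes, against 312, 593 and 708 with 0, 1 and 2 surrogate variables, 269 by the likelihood ratio test and 317 by DESeq2 without surrogate variables, 866 by DESeq2 with them, and 2099 with animal 1602 as hpCTL. Over left-out libraries they numbered 520 to 2119 (240 to 596 without surrogate variables, with 348, 335, 274, 560, 362 and 263 in between).

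Of the other pathway genes, 0 passed an FDR of 0.05, against 1 by the likelihood ratio test, 1 by DESeq2 and 1 with animal 1602 as hpCTL. Over left-out libraries 0 to 1 passed (0 without surrogate variables). At an unadjusted p-value below 0.05 they numbered 9, against 2, 2 and 3 with 0, 1 and 2 surrogate variables, 1 by the likelihood ratio test and 3 by DESeq2 without them, and 2 to 14 over left-out libraries (0 to 4 without surrogate variables). Same-numbered mice shared only a number (correlations of their deviations -0.04 to 0.02). The replicate block was fitted without surrogate variables and left an unadjusted p-value under 0.05 to 272 genes and 0 other pathway genes, against 312 and 2 without surrogate variables or block. With the longest transcript as length, mean RPKM was 1.32 for Hrh1, 2.13 for Hrh2 and 8.87 for Hnmt, and the order of the members stayed. Over left-out libraries it was 0.911 to 1.02 for Hrh1, 1.39 to 1.48 for Hrh2, 15.1 to 16.5 for Hrh3 and 7.16 to 7.52 for Hnmt. The causes were not tested.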
